A study of Mus musculus with 6 samples.

Results

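The transporters that move bile acids and biliary lipids across the hepatocyte were examined in the livers of Alkbh5-HKO mice and of Alkbh5flox/flox mice. The group comprises 10 genes, taken by name from a deposited table of 41838 genes, and all 10 were found and passed the filter on low values. By role they are 4 sinusoidal uptake carriers (Slc10a1, Slco1a1, Slco1a4 and Slco1b2), 5 canalicular export pumps (Abcb11, Abcb4, Abcc2, Abcg5 and Abcg8) and 1 basolateral efflux pump (Abcc3). The members were chosen with earlier results of these data known.

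Liver mRNA was sequenced from 3 mice per group, at 9 weeks by the series text. The mice called HKO are Alkbh5-HKO in the series text and Alkbh5-CKO in the sample titles. The mice called flox carry Alkbh5flox/flox and are their controls. Alkbh5 encodes an RNA demethylase of N6-methyladenosine. All mice had normal chow. The labels do not spell out HKO or CKO, and they name no Cre driver, deleted exon or sex, nor whether the mice were fasted. The aim stated in the series title is to describe what ALKBH5 does for liver function.

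Hepatocytes take bile acids from portal blood across the sinusoidal membrane and secrete them into the canaliculus, a channel sealed between neighbouring cells. Sodium-dependent uptake runs through the product of Slc10a1 (NTCP), and sodium-independent uptake through organic anion transporting polypeptides of the Slco family. At the canaliculus, ABCB11 (BSEP) exports bile salts, ABCB4 (MDR2 in mice) moves phosphatidylcholine to the outer leaflet, and the ABCG5 and ABCG8 proteins form a heterodimer that secretes sterols. ABCC2 (MRP2) exports conjugated bilirubin and glutathione conjugates into bile, while ABCC3 (MRP3) sends conjugates back to blood. Several of these genes are textbook targets of nuclear receptors: Abcb11 of the bile acid receptor FXR, Abcg5 and Abcg8 of the oxysterol receptors LXR, Abcb4 of PPAR-alpha in mice, and Slco1a4 of the xenobiotic receptors PXR and CAR.

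Values are FPKM, the authors' fragments per kilobase of gene length, scaled to library size, and a level can be compared between genes only on that per-length scale. Recovered depth was 14907384 to 17034754 reads per library, and the lowest read count behind any member's value was 281. Alkbh5 was at 0.508, 0.443 and 0.476 FPKM in HKO livers 1 to 3, against 17.8, 16.8 and 14.8 FPKM in flox livers 1 to 3 (log2 -3.56, limma BH adjusted p = 8.14e-05), which fits the genotype labels. Y-linked Ddx3y was at 11.4 to 19.9 FPKM in HKO livers and at 12.2 to 14.0 FPKM in flox livers, and Xist did not exceed 0.0173 FPKM in any of the 6. The hepatocyte list (10 of 10 tested, albumin among them) summed to 60595 to 62357 FPKM in HKO livers and 53727 to 63635 FPKM in flox livers. Albumin, the largest part of that sum, was at 33905 to 39984 FPKM in HKO and 26035 to 32095 FPKM in flox livers. Of the 10 markers, 3 were above and 7 below flox. Without overlap were 1 higher and 2 lower, beside 12.8% and 12.6% of all tested genes. Summed cholangiocyte markers were at 32.7 to 38.2 FPKM in HKO and 34.0 to 45.9 FPKM in flox livers, with the keratin Krt7 at no more than 0.447 FPKM in any library. In bulk liver, fewer cells of a type and less RNA per cell cannot be told apart.

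The promoters of the members that the results turn on are printed first, from RefSeq on GRCm38.p6. Each runs from 250 bases before to 50 bases after a transcript start, and 9 of the 10 members have an entry (not Abcc3). Slco1a4 and Abcb4 are shown because they alone among the members had HKO and flox livers that did not overlap. Abcg8, the first of its 2 entries, is shown because its start lies 110 bases from that of Abcg5 on the opposite strand, so that 209 bases of this window also belong to the Abcg5 window. Abcb11 is shown for its inverted repeat. Capitals mark matches to the motifs searched on both strands: the hexamer AGGTCA, that hexamer paired as an inverted repeat around 1 base (IR1) or as a direct repeat across 1 (DR1) or 4 bases (DR4) with up to 2 mismatches in the 12 fixed bases, and TATAAA.
Slco1a4, chr6:141856171-141856470, minus strand: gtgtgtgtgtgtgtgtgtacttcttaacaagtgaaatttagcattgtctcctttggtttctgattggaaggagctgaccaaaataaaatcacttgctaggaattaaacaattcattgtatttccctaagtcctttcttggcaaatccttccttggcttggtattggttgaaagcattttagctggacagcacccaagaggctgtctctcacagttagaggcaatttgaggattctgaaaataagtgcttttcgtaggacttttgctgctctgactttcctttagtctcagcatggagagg
Abcb4, chr5:8893471-8893770, plus strand: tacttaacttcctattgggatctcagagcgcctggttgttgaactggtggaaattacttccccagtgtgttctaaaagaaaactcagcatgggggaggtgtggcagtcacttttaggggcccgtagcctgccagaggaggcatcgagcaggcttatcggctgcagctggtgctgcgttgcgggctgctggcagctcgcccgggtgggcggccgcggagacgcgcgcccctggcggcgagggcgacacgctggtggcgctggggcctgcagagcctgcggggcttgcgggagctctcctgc
Abcg8 and Abcg5, chr17:84682871-84683170, plus strand: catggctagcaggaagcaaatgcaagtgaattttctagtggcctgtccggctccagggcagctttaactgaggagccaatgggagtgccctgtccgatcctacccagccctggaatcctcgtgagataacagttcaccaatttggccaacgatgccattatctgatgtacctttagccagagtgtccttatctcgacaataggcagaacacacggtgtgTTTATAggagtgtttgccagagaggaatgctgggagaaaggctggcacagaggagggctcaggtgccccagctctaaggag
Abcb11, chr2:69342567-69342866, minus strand: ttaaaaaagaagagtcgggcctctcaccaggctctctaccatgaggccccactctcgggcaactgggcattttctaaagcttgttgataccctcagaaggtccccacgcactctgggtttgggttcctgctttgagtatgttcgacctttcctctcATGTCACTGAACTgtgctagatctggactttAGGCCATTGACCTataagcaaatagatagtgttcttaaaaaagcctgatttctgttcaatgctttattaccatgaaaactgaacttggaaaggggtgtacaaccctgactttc

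The Slco1a4 and Abcb4 windows held none of these letters, which says nothing of whether any receptor binds there. The Abcb4 window was richer in G and C, at 64.0%, than the Slco1a4 window, at 40.7%, and the median of all promoters was 52.7%. In the shared window of Abcg5 and Abcg8 the single match was TATAAA on the Abcg5 strand, which overlaps positions -31 to -26 of Abcg8. The Abcb11 window held an IR1 with 1 mismatch at -63 to -51, the arrangement that FXR is known to bind, and another with 2 mismatches at -94 to -82. Of all 32851 promoters of the same length, 1.14% held an IR1, 3.86% a DR1, 3.02% a DR4, 16.3% the AGGTCA hexamer and 13.6% TATAAA. Hexamer matches overlap the repeats that contain them. Among the other members, Slco1b2 held an IR1 with 1 mismatch at -88 to -76, and Slco1a1 a DR1 with 1 mismatch at -134 to -122.

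Every HKO liver had more Slco1a4 and less Abcb4 than every flox liver, and the other 8 transporters overlapped between the groups. The groups did not overlap for 25.4% of all tested genes, so 2 of 10 is not above that background. The mean of Slco1a4 was 3.77 times its flox mean, and that of Abcb4 was 0.469 of its flox mean. None of the 10 passed the test over all genes (limma on log2(FPKM + 1), Benjamini-Hochberg (BH) adjusted p under 0.05). By the same test 51 of 10453 tested genes, 0.488%, passed. At an unadjusted p under 0.05, 2 members were counted, Slco1a4 as higher and Abcb4 as lower, where 17% of all tested genes were (8.57% higher and 8.44% lower). The members' count is therefore close to the background. Limma voom on the reads recovered from the FPKM likewise passed none. The median log2 fold change of the members was 0.14, beside -0.02 over all tested genes, with 9 members above and 1 below 0.

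**Figure D1:**
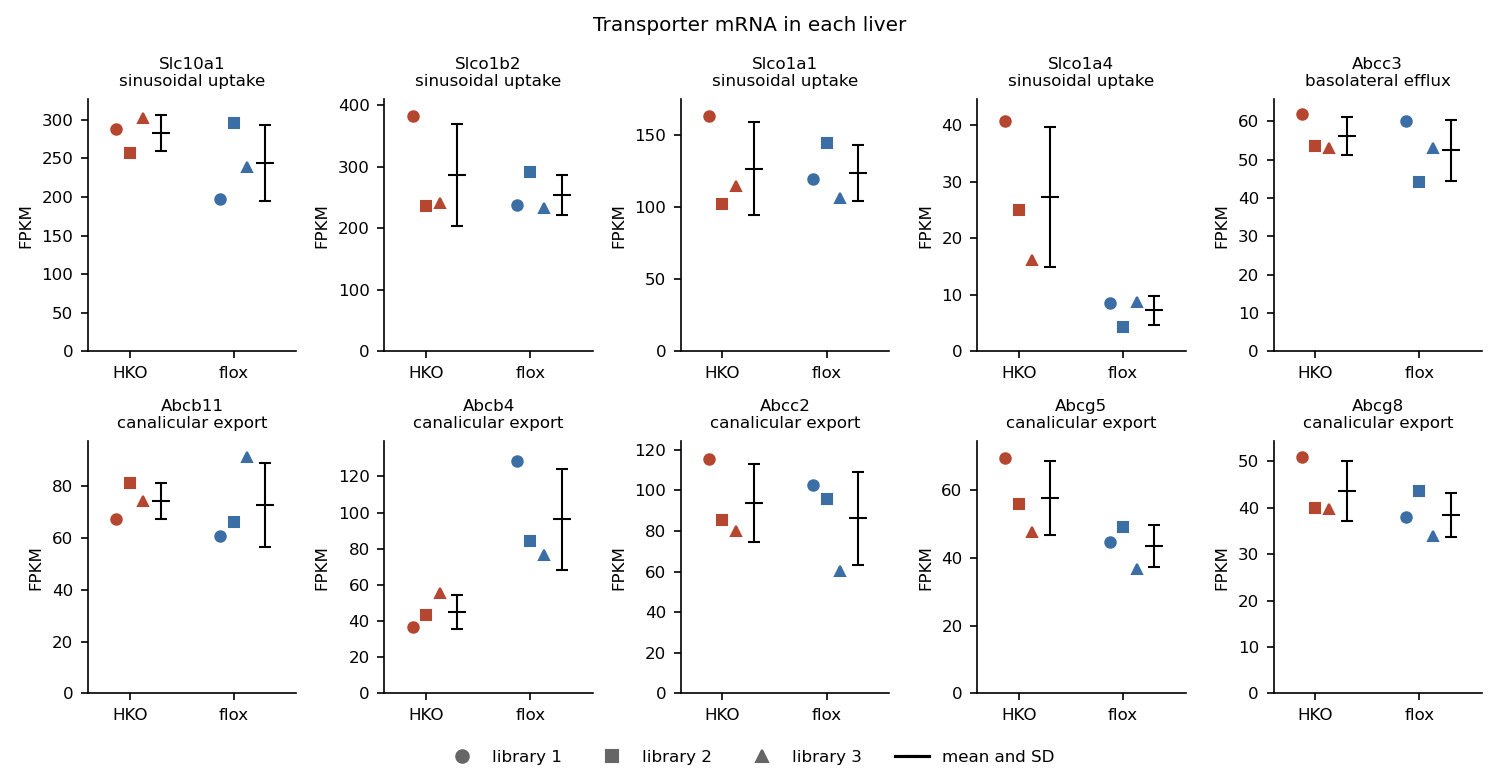
FPKM of each transporter (vertical axes, each from 0) in the 3 HKO and the 3 flox livers, with a marker for each library and the group mean and SD (n = 3) to its right. The HKO and flox livers do not overlap for Slco1a4, where HKO is higher, and Abcb4, where HKO is lower, and they overlap for the other 8.

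Among the uptake carriers, Slc10a1 encodes the main sodium-coupled bile acid transporter of the hepatocyte (chromosome 12, 80953185 to 80968700, minus strand, GRCm38.p6). It was at 288, 257 and 303 FPKM in HKO livers 1 to 3, against 198, 295 and 239 FPKM in flox livers 1 to 3. Flox liver 2 lay within the HKO range, so the groups overlapped. The log2 fold change was 0.23 (limma 95% interval -0.19 to 0.65, BH adjusted p = 0.55).

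Slco1b2, the mouse counterpart of human OATP1B1 and OATP1B3, carries unconjugated bile acids and bilirubin conjugates (chromosome 6, 141629452 to 141686646, plus strand). Its FPKM was 381, 236 and 241 in HKO livers 1 to 3, against 237, 291 and 233 in flox livers 1 to 3. HKO liver 1 stood above the other 5, which lay between 233 and 291. The log2 fold change was 0.15 (limma 95% interval -0.37 to 0.66, BH adjusted p = 0.757), and without HKO liver 1 it was -0.08.

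Slco1a1, an organic anion carrier that in mice is higher in male than in female liver, lies on the same chromosome (141907281 to 141946962, minus strand). HKO livers 1 to 3 had 163, 102 and 115 FPKM, against 120, 145 and 106 FPKM in flox livers 1 to 3. Again HKO liver 1 was the highest of the 6, and HKO liver 2 was the lowest. The group means were 127 ± 32.4 and 124 ± 19.5 FPKM (SD, n = 3 each, HKO and flox), and the log2 fold change was 0.02 (limma 95% interval -0.48 to 0.52).

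Slco1a4 encodes OATP1A4, a carrier of bile acids, digoxin and other organic anions, known in mice to be higher in females and induced by xenobiotics (chromosome 6, 141805438 to 141856284, minus strand). It was at 40.7, 25.0 and 16.2 FPKM in HKO livers 1 to 3, against 8.62, 4.33 and 8.79 FPKM in flox livers 1 to 3. The lowest HKO liver thus lay above the highest flox liver, and the HKO livers themselves spanned a wide range. The mean was 27.3 ± 12.4 FPKM in HKO and 7.25 ± 2.53 FPKM in flox livers (SD, n = 3 each), an increase of 277%. On the log2(FPKM + 1) scale the difference was 1.74 (SE 0.37, limma 95% interval 0.87 to 2.61), with a BH adjusted p of 0.0911. Its absolute log2 fold change ranked 43 of 10453 tested genes and its p-value ranked 243. Over all tested genes, 12.8% had every HKO liver above every flox liver.

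Slco1a4 was a small part of uptake carrier FPKM in both groups. It made up 4.66%, 4.04% and 2.40% of the summed FPKM of the 4 uptake carriers in HKO livers 1 to 3, against 1.53%, 0.589% and 1.5% in flox livers 1 to 3. The sums were 873, 620 and 675 FPKM in HKO livers and 563, 735 and 587 FPKM in flox livers, which overlapped. Shared sequence between the paralogs was small: of the 100-base windows of Slco1a4 transcripts in GENCODE M21, 0.64% also occur in a transcript of another gene, mostly Slco1a5, and for Slco1a1 the share was 0.614%, with Slco1a4. Slco1a5 was listed at 0 in all 6 livers.

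Among the export pumps, Abcb4 encodes the phosphatidylcholine floppase that gives bile its phospholipid (chromosome 5, 8893598 to 8959226, plus strand). It was at 36.7, 43.4 and 55.3 FPKM in HKO livers 1 to 3, against 128, 84.2 and 76.4 FPKM in flox livers 1 to 3. Every HKO liver lay below every flox liver, and flox liver 1 was the highest by a wide margin. The mean was 45.1 ± 9.42 FPKM in HKO and 96.3 ± 28.0 FPKM in flox livers (SD, n = 3 each), a change of -53.1%. The log2 difference was -1.06 (SE 0.24, limma 95% interval -1.62 to -0.50), with a BH adjusted p of 0.0964. Among 10453 tested genes its absolute fold change ranked 247 and its p-value 295, and 12.6% of tested genes had every HKO liver below every flox liver. Without flox liver 1 the log2 difference was -0.84. Abcb4 made up 10.8%, 14.2% and 18.6% of the summed FPKM of the 5 canalicular pumps in HKO livers 1 to 3, against 34.3%, 24.9% and 25.6% in flox livers 1 to 3.

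Abcb11, the bile salt export pump and rate-limiting step of bile salt secretion, did not follow Abcb4 (chromosome 2, 69238282 to 69342843, minus strand). Its FPKM was 67.2, 81.1 and 74.2 in HKO livers 1 to 3, against 61.0, 66.2 and 91.1 in flox livers 1 to 3. The HKO range lay inside the flox range. The log2 fold change was 0.05 (limma 95% interval -0.38 to 0.48, BH adjusted p = 0.916). Of its exonic bases, 3.01% overlap other annotated genes, Gm13613 and Gm13614.

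Abcc2, the canalicular pump for organic anion conjugates (chromosome 19, 43782308 to 43838332, plus strand), was at 116, 85.7 and 80.1 FPKM in HKO livers 1 to 3, against 103, 95.7 and 60.3 FPKM in flox livers 1 to 3. The groups overlapped, with HKO liver 1 highest and flox liver 3 lowest. Its log2 fold change was 0.14 (limma 95% interval -0.43 to 0.71). Abcc3, the basolateral pump of the same family (chromosome 11, 94343295 to 94393018, minus strand), was at 61.8, 53.5 and 52.9 FPKM in HKO livers 1 to 3, against 60.0, 44.1 and 53.0 FPKM in flox livers 1 to 3. The interval of its log2 difference, -0.27 to 0.47 around 0.10, was the narrowest of the 10.

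Abcg5 and Abcg8, the subunits of the sterol exporter, lie head to head on chromosome 17 (84658174 to 84683011, minus strand, and 84676302 to 84700341, plus strand). Abcg5 was at 69.2, 55.8 and 47.5 FPKM in HKO livers 1 to 3, against 44.6, 49.0 and 36.7 FPKM in flox livers 1 to 3. The groups met at a single pair, HKO liver 3 and flox liver 2. Its log2 fold change of 0.39 (limma 95% interval -0.04 to 0.82, BH adjusted p = 0.337) was the third largest in size among the members. Abcg8 was at 50.9, 40.0 and 39.8 FPKM in HKO livers 1 to 3, against 37.9, 43.5 and 34.0 FPKM in flox livers 1 to 3, with a log2 fold change of 0.17 (limma 95% interval -0.20 to 0.55, BH adjusted p = 0.61). The ranges overlapped more widely than for Abcg5. The genes share 82 exonic bases on opposite strands in GENCODE M21, 3.02% of those of Abcg5 and 2.19% of those of Abcg8, and no source used here gives the strand setting of the counting.

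**Figure D2:**
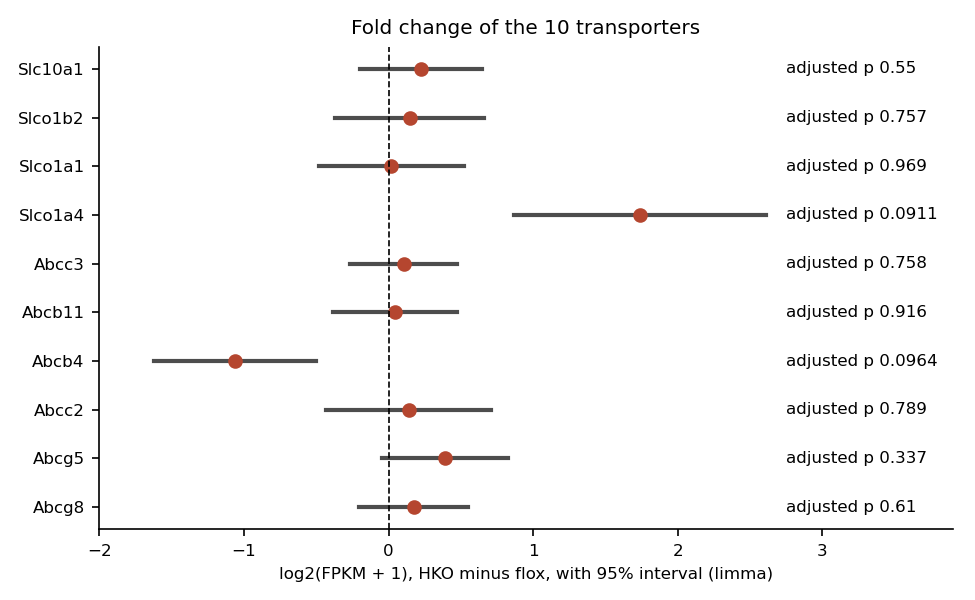
Difference of log2(FPKM + 1) between HKO and flox livers for each transporter (point) with its limma 95% interval (line), the BH adjusted p at the right and a dashed line at 0. The intervals of Slco1a4 (0.87 to 2.61) and Abcb4 (-1.62 to -0.50) lie clear of 0 before adjustment, and the other 8 include it.

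Ordered by mean FPKM, the uptake carriers Slco1b2 and Slc10a1 were the most abundant of the 10 in both groups. Slco1b2 averaged 286 ± 82.4 FPKM in HKO and 254 ± 32.7 FPKM in flox livers, and Slc10a1 283 ± 23.3 FPKM in HKO and 244 ± 49.0 FPKM in flox livers (SD, n = 3 each). The ranges of these neighbours overlapped in either group, and both lay above the range of Slco1a1, which came next. Slco1a4 was the least abundant member in HKO as in flox livers, and only in flox livers was its range clear of its neighbour Abcg8. Abcb4 held place 8 of 10 in HKO livers and place 4 in flox livers, each time with a range that met those of its neighbours.

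Ratios within a library do not depend on how libraries are scaled, and 5 pairs were compared. The Abcb4 to Abcb11 ratio was 0.545, 0.535 and 0.744 in HKO livers 1 to 3, against 2.11, 1.27 and 0.838 in flox livers 1 to 3. Phospholipid floppase transcripts were thus below those of the bile salt pump per length in every HKO liver and in flox liver 3. The Slco1a4 to Slco1a1 ratio was 0.249, 0.245 and 0.141 in HKO livers, against 0.0719, 0.0300 and 0.0828 in flox livers, again without overlap. Both ratios set a non-overlapping member over one that changed little (log2 0.05 for Abcb11 and 0.02 for Slco1a1). They therefore largely restate the Abcb4 and Slco1a4 differences and add no separate support.

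The Abcg5 to Abcg8 ratio was 1.36, 1.40 and 1.19 in HKO livers 1 to 3, against 1.18, 1.13 and 1.08 in flox livers 1 to 3. These groups did not overlap either, but HKO liver 3 and flox liver 1 lay closer together than the counting error of a single ratio, which was 2.65% to 3.41%. For each of these 3 pairs the exact two-sided permutation p was 0.1, the smallest that 3 against 3 allows, and 0.167 after BH adjustment over the 5 pairs. The Abcc3 to Abcc2 ratio averaged 0.606 ± 0.0652 in HKO and 0.641 ± 0.215 in flox livers (SD, n = 3 each), with an exact permutation p of 1. The Slc10a1 to Abcb11 ratio, uptake over export of bile acids, averaged 3.84 ± 0.593 in HKO and 3.44 ± 0.932 in flox livers, with an exact permutation p of 0.7. Both of the last pairs overlapped between the groups.

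**Figure D3:**
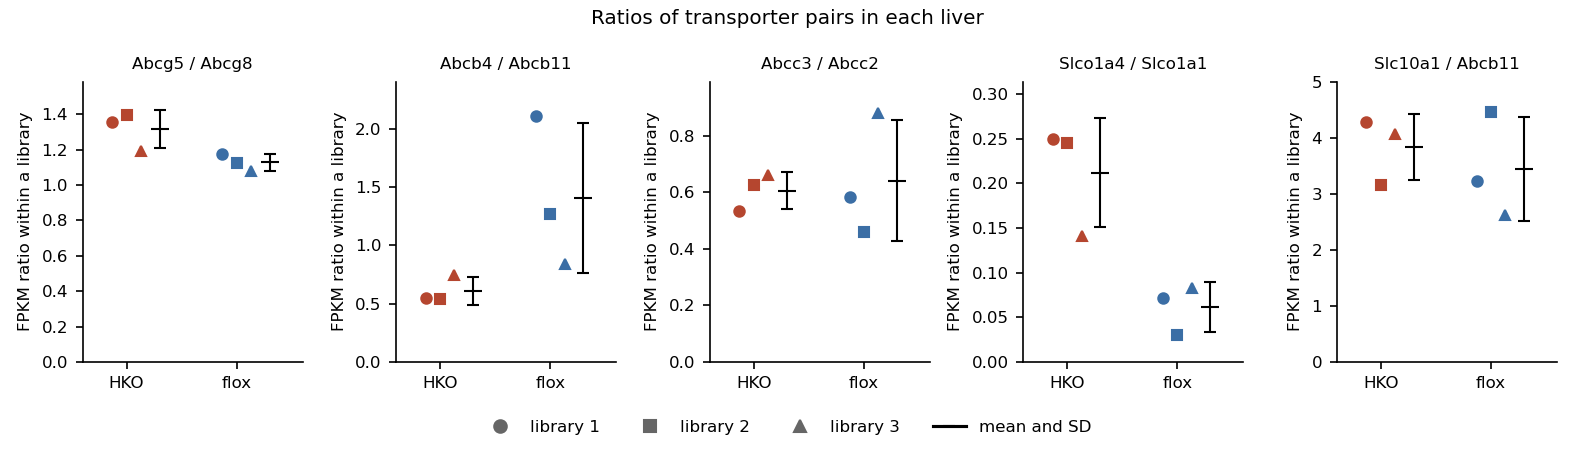
FPKM of the first gene over that of the second within each library (vertical axes from 0, no unit), with a marker for each of the 3 HKO and the 3 flox livers and the group mean and SD (n = 3). HKO and flox livers do not overlap for Abcg5 / Abcg8, Abcb4 / Abcb11 and Slco1a4 / Slco1a1, and they overlap for Abcc3 / Abcc2 and Slc10a1 / Abcb11.

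HKO liver 1 held an extreme of the 6 libraries in 8 of the 10 transporters: it was the highest in 7 and the lowest in Abcb4. Over all tested genes it was the highest in 27.6% and the lowest in 29.4%. Its part in the differences was measured by leaving it out. The log2 fold change of Slco1a4 was then 1.41, that of Abcb4 -0.92 and that of Abcg5 0.25, and 6 members instead of 9 lay above flox. The log2 fold changes of Slco1a1, Slco1b2 and Abcc2 were then negative, at -0.18, -0.08 and -0.02.

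**Figure D4:**
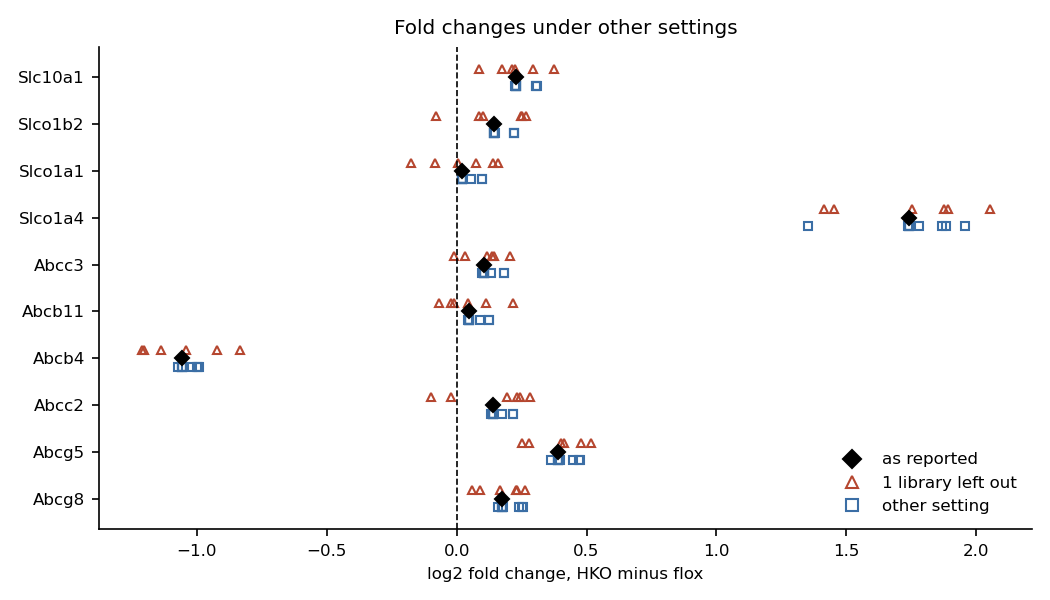
Log2 fold change, HKO minus flox, of each transporter as reported (diamond), with 1 of the 6 libraries left out (triangles) and under the other settings (squares), with a dashed line at 0. Slco1a4 stays between 1.35 and 2.05 and Abcb4 between -1.21 and -0.84, while Slco1a1, Slco1b2, Abcb11, Abcc2 and Abcc3 cross 0 when single libraries are left out.

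Other carriers of the hepatocyte and bile duct were mostly close to their flox levels. Of 27 listed, 18 were tested, 9 above and 9 below flox with a median log2 of -0.01, and none passed limma with BH adjustment (1 at an unadjusted p under 0.05, higher, beside 8.57% of all tested genes). That 1 was Aqp8, a water channel of the canalicular membrane, at 73.2, 88.6 and 111 FPKM in HKO livers 1 to 3, against 10.8, 16.9 and 54.6 FPKM in flox livers 1 to 3 (log2 1.99, BH adjusted p = 0.143). All HKO livers lay above all flox livers, and flox liver 3 was the nearest to them. Slc10a2, the apical sodium-dependent bile acid transporter, was at 11.2, 3.76 and 5.50 FPKM in HKO livers, against 4.08, 3.63 and 2.55 FPKM in flox livers (log2 0.73), and Slc22a7, an organic anion transporter, had a log2 of -0.63. Both overlapped between the groups. Of the 18 tested, 2 did not overlap as higher and 1 as lower, beside 12.8% and 12.6% of all tested genes. They were Aqp8 and Abcc6 as higher and Scarb1 as lower.

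Genes that make and conjugate bile acids were 5 above and 11 below flox of 16 tested (median log2 -0.25), and none passed limma with BH adjustment, although unadjusted p-values under 0.05 were found for 3 higher and 2 lower genes (8.57% and 8.44% of all tested genes). Akr1d1, the reductase of the steroid ring on the way to bile acids, was at 56.6, 35.1 and 35.0 FPKM in HKO livers 1 to 3, against 14.0, 23.7 and 16.9 FPKM in flox livers 1 to 3 (log2 1.17, BH adjusted p = 0.0911). Cyp39a1, an oxysterol hydroxylase, had a log2 of 1.06 (BH adjusted p = 0.0865) and Slc27a2, a very long-chain acyl-CoA synthetase that also activates bile acid precursors, -0.66 (BH adjusted p = 0.154). The groups did not overlap for any of these 3, which were named for having the list's largest fold changes in size. Over the 16 tested, 3 did not overlap as higher and 2 as lower, beside 12.8% and 12.6% of all tested genes.

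Receptors and factors known to act on transporter genes were mostly below flox, 14 of 16 tested against 2 above (median log2 -0.24), and none passed limma with BH adjustment, although unadjusted p-values under 0.05 were found for 1 higher and 5 lower genes (8.57% and 8.44% of all tested genes). Nr0b2, which encodes the repressor SHP of the FXR pathway, was at 9.06, 34.8 and 12.3 FPKM in HKO livers 1 to 3, against 22.3, 38.8 and 25.2 FPKM in flox livers 1 to 3 (log2 -0.78, BH adjusted p = 0.438), and the groups overlapped. Nr1i2, which encodes PXR, was at 27.3, 23.9 and 31.6 FPKM in HKO livers, against 50.7, 57.3 and 31.9 FPKM in flox livers (log2 -0.70, BH adjusted p = 0.198). HKO liver 3 and flox liver 3 nearly met, but the groups did not overlap. Over the 16 tested, 1 did not overlap as higher and 4 as lower, beside 12.8% and 12.6% of all tested genes.

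The other receptors named above as textbook regulators of members were picked after their values were seen. Nr1h4, which encodes FXR, was at 61.7, 48.6 and 65.4 FPKM in HKO livers 1 to 3, against 64.4, 71.9 and 59.5 FPKM in flox livers 1 to 3 (log2 -0.16). Nr1h3, which encodes LXR-alpha, was at 29.8, 39.9 and 42.1 FPKM in HKO livers, against 50.7, 52.4 and 45.4 FPKM in flox livers (log2 -0.41, limma BH adjusted p = 0.268), without overlap. Nr1h2, which encodes LXR-beta, overlapped (log2 -0.23).

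For the members whose groups did not overlap, Ppara, which encodes PPAR-alpha, was at 38.8, 22.6 and 31.1 FPKM in HKO livers 1 to 3, against 48.3, 48.2 and 25.9 FPKM in flox livers 1 to 3 (log2 -0.37, limma BH adjusted p = 0.544). Nr1i3, which encodes CAR, was at 54.2, 68.7 and 74.7 FPKM in HKO livers, against 110.4, 110.4 and 69.4 FPKM in flox livers (log2 -0.53, limma BH adjusted p = 0.292). Both overlapped between the groups, with flox liver 3 below the other flox livers.

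Genes for proteins that hold carriers at the canaliculus or seal it were 10 above and 7 below flox of 17 tested (median log2 0.04). None passed limma with BH adjustment, and 2 were higher at an unadjusted p under 0.05, beside 8.57% of all tested genes. The tight junction genes Ocln (log2 0.65), Cldn1 (0.58) and Cgn (-0.49) had the largest fold changes in size, and each overlapped between the groups. Of the 17 tested, 2 did not overlap as higher and 2 as lower, beside 12.8% and 12.6% of all tested genes. These were Rdx and Tjp1 as higher and Cldn2 and Stk11 as lower.

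Slco1a1 and Slco1a4 are known in mice as male-biased and female-biased genes, and other genes with such a bias were listed for that reason. Of 10 male-biased genes, all tested, 9 were below flox and Slco1a1 was the 1 above (median log2 -0.61), and 5 of the 10 did not overlap, HKO being lower, beside 12.6% of all tested genes. None passed limma with BH adjustment, with 5 lower at an unadjusted p under 0.05, beside 8.44% of all tested genes. Ugt2b38, a glucuronosyltransferase, was at 12.5, 4.38 and 9.40 FPKM in HKO livers 1 to 3, against 30.1, 33.1 and 18.1 FPKM in flox livers 1 to 3 (log2 -1.58, BH adjusted p = 0.106), and Selenbp2 and the fatty acid elongase Elovl3 had log2 values of -1.42 and -1.16. Of 10 female-biased genes only 3 passed the filter on low values, Slco1a4 and Cyp2b9 among them. A gene can pass it through HKO livers alone, so their shared direction is no support. Cyp2b9, a cytochrome P450, was at 9.23, 2.86 and 6.52 FPKM in HKO livers, against 0, 0.172 and 2.65 FPKM in flox livers (log2 2.04, BH adjusted p = 0.148), without overlap.

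**Figure D5:**
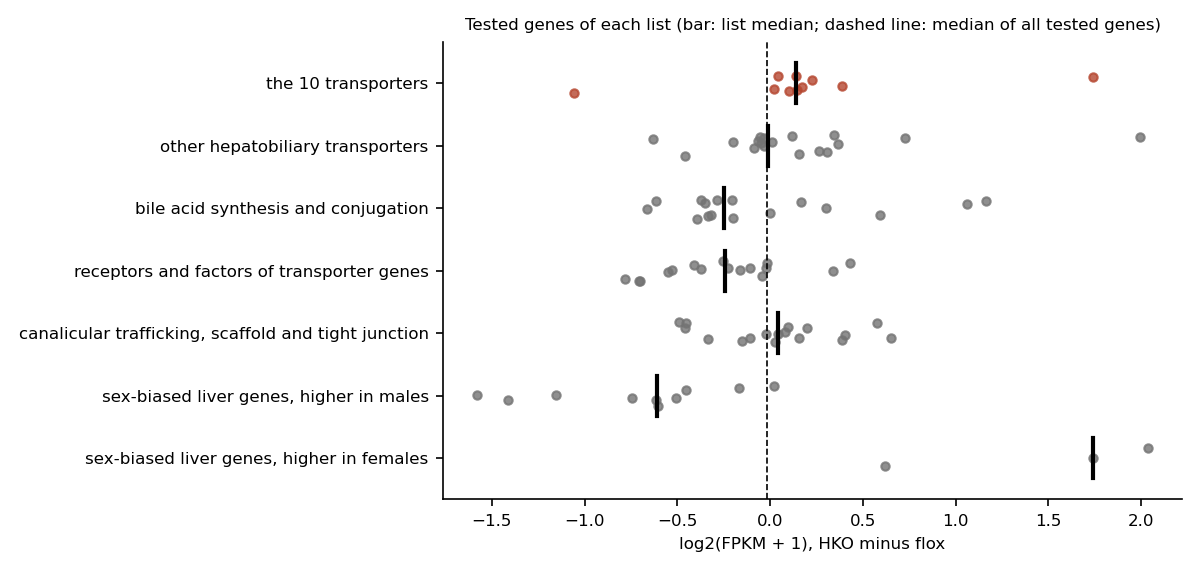
Log2 fold change, HKO minus flox, of every tested gene (points, spread vertically at random) in the 7 lists, with a bar at each list's median and a dashed line at the median of all tested genes, -0.02. The 10 transporters lie around a median of 0.14 with Slco1a4 (1.74) and Abcb4 (-1.06) at the ends, beside medians of -0.24 for the receptors and factors and -0.61 for the male-biased genes.

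Red cell markers differed between the groups in these libraries. All 5 tested of 6 erythroid markers were below flox and 1, Hbb-bt, passed (log2 -1.95, limma BH adjusted p = 0.0373). The summed FPKM of the list was 105 to 209 in HKO livers and 352 to 674 in flox livers, and Slc4a1 was listed at 0 in each HKO liver. Mitochondrial genes took 4.35% to 5.67% of reads in HKO and 3.66% to 4.38% in flox livers. The part of either in the Slco1a4 and Abcb4 differences was not tested. Summed Kupffer cell markers (139 to 243 FPKM in HKO and 135 to 201 FPKM in flox livers) and sinusoidal endothelial markers (22.7 to 30.4 FPKM in HKO and 20.7 to 27.9 FPKM in flox livers) overlapped, as did stellate cell markers (53.6 to 62.5 FPKM in HKO and 32.3 to 59.4 FPKM in flox livers). Gut markers summed to 64.8 to 90.1 FPKM in HKO and 80.7 to 92.7 FPKM in flox livers, and of 3 tested, 2 were above and 1 below flox. The 1 below, Lgals4, a galectin, passed (log2 -1.26, limma BH adjusted p = 0.0441), as did 0.488% of all tested genes in either direction. Periportal hepatocyte markers summed to 2733 to 3431 FPKM in HKO and 2800 to 4391 FPKM in flox livers, and pericentral markers to 4445 to 4951 FPKM in HKO and 4549 to 6650 FPKM in flox livers. Of the 8 periportal markers, 6 were above flox and 2 below, Cyp2f2 (log2 -0.20) and Pck1 (log2 -0.55). Among them 4 had every HKO liver above every flox liver, beside 12.8% of all tested genes, and none passed limma with BH adjustment. Of the 8 pericentral markers, 3 were above flox and 5 below, and none passed. Without overlap were 1 higher, Cyp1a2, and 0 lower, beside 12.8% and 12.6% of all tested genes.

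Genes outside the group whose profile over the 6 libraries was nearest to a non-overlapping member were ranked by the root mean square difference of log2(FPKM + 1), each profile centred on its own mean. For Abcb4 these were Paqr7 (0.104), Insc (0.117) and Cyp4a32 (0.12), where the median over all tested genes was 0.626. For Slco1a4 they were Gm38670 (0.273), Tnfsf10 (0.278) and 9130409I23Rik (0.322), where that median was 1.01. Gm38670, a microRNA gene, was listed at 0 in flox liver 2, and Tnfsf10 did not exceed 0.914 FPKM in any flox liver. The likeness of these genes to Slco1a4 thus rests partly on low values.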

How the data were processed

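Poly(A) RNA from 6 livers was sequenced in read pairs, per the labels' protocols. Per the series text, the authors aligned reads with HISAT2 2.0.5 to GRCm38.p6 and used featureCounts 1.5.0-p3 for counting. CASAVA and DESeq2 1.20.0 are listed, with no role, in the submitters' processing notes. The authors deposited FPKM, scaled by a library size they do not state, with the gene length used.

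FPKM times length gave whole reads for 100% of values (tolerance 0.001). After a filter at a mean of 1 FPKM, genes were fitted in R 4.3.3 with limma 3.58.1 (trend, robust; statmod 1.5.0) on log2(FPKM + 1), HKO minus flox, with no covariate and BH adjustment across all 10453 tested genes. The pseudocount shrinks the fold changes of low genes. Figures used Python 3.11.15 and matplotlib 3.10.9. Limma p-values set the group difference against the spread between 3 mice per group, which is drawn toward a trend over all tested genes.

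The members and lists were chosen with earlier results of these data known: 8 lists by function and 9 by cell type, with 1 symbol (transferrin) matched through its synonym. The genes named are every member and, from each functional list, those that passed or else the 3 tested genes with the largest absolute fold change, plus summed and defining markers; some that this rule picks are not reported here. The sex chromosome list had 4 of 4 tested genes above flox, and none passed. Planned protein comparisons were not made. Pairs of same-numbered libraries had correlations of deviations of 0.153, -0.145 and -0.0514. With so few pairs these cannot settle whether the numbers pair the mice. The main fit left them unpaired, and a fit with the replicate number as a block is given below.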

Additional observations from a re-analysis of the deposited data

How the results depend on the processing

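No transporter passed limma with BH adjustment, as higher or lower, in any of the 16 alternatives: a pseudocount of 0.1 or 5, no filter or a filter at 5 FPKM, scaling by median of ratios, by quantiles or to TPM, eBayes without trend and robust, the replicate block, voom on the recovered reads, and each library left out. The adjusted p was 0.0791 to 0.246 for Slco1a4 and 0.0694 to 0.253 for Abcb4 over these, with log2 fold changes of 1.35 to 2.05 and -1.21 to -0.84. With the replicate number as a block the log2 of Slco1a4 was 1.74 (adjusted p = 0.129) and that of Abcb4 -1.06 (adjusted p = 0.176), and over all genes 1 passed as higher and 8 as lower, against 28 and 23. Counts over all genes also fell to 0 and 1 with no filter, and were 78 and 42 with voom and 18 and 16 with a pseudocount of 0.1. With a library left out they were 1 and 2 (HKO liver 1), 0 and 1 (HKO liver 2), 20 and 30 (HKO liver 3), 0 and 2 (flox liver 1), 0 and 1 (flox liver 2) and 29 and 38 (flox liver 3). The median log2 of the 10 transporters was 0.05 without HKO liver 1 and 0.24 without flox liver 2, the ends of its range.

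Of 160 values of single transporters, 151 kept direction and side of the threshold, and 9 changed sign, all with 1 library left out. Ranges with a library left out were -0.177 to 0.160 for Slco1a1, -0.0795 to 0.265 for Slco1b2, -0.0697 to 0.217 for Abcb11, -0.0975 to 0.282 for Abcc2 and -0.0123 to 0.206 for Abcc3. Slco1a1 changed sign without HKO liver 1 (-0.177) or flox liver 3 (-0.0829), Slco1b2 without HKO liver 1, Abcc2 without HKO liver 1 (-0.0204) or flox liver 3, Abcc3 without flox liver 2, and Abcb11 without HKO liver 2 (-0.0203), flox liver 1 or flox liver 2 (-0.0108). The cause was not tested. With a library left out, the log2 difference of the Abcg5 to Abcg8 ratio was 0.18 to 0.29, that of Abcb4 to Abcb11 -1.44 to -0.78, that of Slco1a4 to Slco1a1 1.41 to 2.14, that of Abcc3 to Abcc2 -0.25 to 0.22, which changes sign, and that of Slc10a1 to Abcb11 0.0038 to 0.39. Depth limits Slco1a4 most among the 10, with 281 reads behind its value in flox liver 2.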
